A study of Mus musculus with 3 samples.

Results

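The CC chemokine genes described here are 10 genes taken by symbol from the transcript tables (Ccl2, Ccl3, Ccl4, Ccl5, Ccl6, Ccl7, Ccl8, Ccl9, Ccl12 and Ccl22), out of 55536 genes in the deposited gene tables, 22028 of them protein-coding. The cells were macrophages of C57BL/6J mice, obtained as primary cells by growing bone marrow precursors in culture, and RNA of their chromatin fraction had been sequenced after ribosomal RNA was depleted. All cells had been given Lipid A, the lipid anchor of bacterial lipopolysaccharide and the ligand of TLR4, at 100 ng/ml for 12 h, had been kept without it for 12 h, and had then met it again at 100 ng/ml for 10 min. The 3 libraries of this 1 condition are called biological replicates in the labels and carry separate biosamples but the same donor identifier, and the labels give no age or sex. No untreated cells, cells stimulated a single time or other cell fractions were analysed here, so the values are levels in this state and not responses to Lipid A. The labels give 1 µg of starting RNA in replicate 1, whereas replicate 2 began from 250 ng and replicate 3 from 500 ng.

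CC chemokines are small secreted proteins, named for a pair of adjacent cysteines, that attract leukocytes through G-protein-coupled receptors of the Ccr family. Ccl2, Ccl7 and Ccl12 are ligands of Ccr2 and draw monocytes out of blood and marrow. Ccl3 and Ccl5 bind Ccr1, Ccl4 is a close relative of Ccl3, and Ccl6 and Ccl9 are further Ccr1 ligands made by mouse myeloid cells. Mouse Ccl8 acts on Ccr8, and Ccl22, with Ccl17, on Ccr4, a receptor of helper and regulatory T cells. In macrophages many of these genes are switched on by NF-kappaB and interferon-regulated factors after TLR4 is engaged, and several of their mRNAs carry AU-rich elements through which proteins such as tristetraprolin (Zfp36) shorten their life. RNA on chromatin is RNA being made or not yet released, so it lies closer to transcription than the RNA of whole cells.

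Expected counts on genes summed to 13538605, 19949204 and 18224466 in replicates 1, 2 and 3. TPM, the deposited abundance scaled by transcript length to a fixed total, includes very abundant noncoding RNA, and protein-coding genes summed to between 273340 and 309048 TPM. All 8 macrophage markers were detected, which here means at least 1 TPM in every library, with a summed level of 744 to 991 TPM. None of the listed markers of neutrophils, T cells, B cells, NK cells, mast cells and basophils or fibroblasts was detected in the gene tables, and their sums there stayed at or below 1.15 TPM in every library and list. In the second, read-based set of tables the T cell marker Cd3d averaged 13.7 TPM ± 1.96, above Ccl6 and Ccl12 in those tables, and Cd8a averaged 2.55, Mpo 1.90, Col1a1 1.30 and Cd3g 1.03. Of 6 dendritic cell markers 1 was detected in the gene tables, Zbtb46 at 1.13 TPM ± 0.147 (SD, n = 3). Clec9a was at 1.11, 1.11 and 0.51 TPM there in replicates 1, 2 and 3. In the read-based tables Zbtb46 averaged 2.18, Siglech 1.87 and Clec9a 1.23 TPM, and the other dendritic cell markers averaged below 1 TPM.

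The annotated starts of the members are shown first for 4 genes whose upstream bases held a match to a core promoter, NF-kappaB or interferon motif. RefSeq promoters (GRCm38.p6) were matched for 6 of the 10 genes, namely Ccl3, Ccl6, Ccl8, Ccl9, Ccl12 and Ccl22. Each sequence is the 250 bases before the RefSeq start, written 5′ to 3′ on the gene's strand, with capitals for the TATA box, the kappaB consensus or the interferon response element core on either strand. Ccl3 and Ccl9 lie on the minus strand at chr11:83649379-83649628 and chr11:83578637-83578886, and Ccl12 and Ccl8 on the plus strand at chr11:82101595-82101844 and chr11:82114935-82115184.
Ccl3: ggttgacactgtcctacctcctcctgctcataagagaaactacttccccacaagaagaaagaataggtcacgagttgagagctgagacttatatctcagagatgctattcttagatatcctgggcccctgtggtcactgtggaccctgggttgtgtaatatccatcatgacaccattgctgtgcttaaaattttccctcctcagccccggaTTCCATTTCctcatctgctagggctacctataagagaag
Ccl9: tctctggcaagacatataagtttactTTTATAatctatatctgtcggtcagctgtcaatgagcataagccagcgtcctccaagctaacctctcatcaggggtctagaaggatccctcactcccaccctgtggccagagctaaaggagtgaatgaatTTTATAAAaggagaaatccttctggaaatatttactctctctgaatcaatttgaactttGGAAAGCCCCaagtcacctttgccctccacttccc
Ccl12: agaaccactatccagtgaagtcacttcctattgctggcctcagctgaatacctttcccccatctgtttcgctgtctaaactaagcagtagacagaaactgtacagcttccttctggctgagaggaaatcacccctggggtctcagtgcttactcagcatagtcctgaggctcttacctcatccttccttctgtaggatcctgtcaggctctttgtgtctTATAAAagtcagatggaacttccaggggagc
Ccl8: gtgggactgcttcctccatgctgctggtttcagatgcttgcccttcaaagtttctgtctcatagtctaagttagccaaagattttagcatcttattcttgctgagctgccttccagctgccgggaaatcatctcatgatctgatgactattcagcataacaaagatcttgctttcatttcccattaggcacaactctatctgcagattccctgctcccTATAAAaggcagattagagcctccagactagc

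Ccl12 and Ccl8, 2 neighbours of the Ccl2 group, each had TATAAA close to the start, at 31 to 26 and 32 to 27 bases before it. Ccl9 had the same letters at 92 to 87 bases before the start, overlapping a match of the other strand at 94 to 89, and a further one at 224 to 219. Of 32851 promoters of this length, 12.4% held TATAAA on either strand, against 3 of the 6 matched here. Ccl9 also had a kappaB consensus on the minus strand at 35 to 26 bases before the start and TGANTCA, the AP-1 letters, at 53 to 47. These were present in 7.25% and 6.75% of all promoters. Ccl3 had GAAANNGAA, the core of an interferon response element, on the minus strand at 39 to 31, overlapping a match at 33 to 28 to GAGGAA, the core bound by ETS factors such as PU.1. The share of all promoters with each was 7.13% and 23.3%. GAGGAA also occurred in Ccl12 and Ccl8, and TTGCNNAA, the C/EBP letters found in 9.56% of promoters, occurred in none of the 6. The windows of Ccl6 and Ccl22 held none of the 6 motifs searched. A match of letters describes the sequence and is no measurement of binding.

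The other end of the transcripts differed in AU-rich letters. Ccl12, whose 3′ UTR is 167 bases long, had 5 ATTTA pentamers (29.9 per kb) and Ccl3 had 5 in 409 bases (12.2 per kb), beside a median of 1.08 per kb over 18544 transcripts. The 30 bases densest in the pentamer are given for both, in mm10 transcripts of GENCODE M21, with ATTTA in capitals.
Ccl12: ATTTAaacaaacttgcttaaataatATTTA
Ccl3: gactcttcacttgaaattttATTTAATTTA
The 3′ UTR of Ccl9 also had 5, spread over 2465 bases, and those of Ccl6, Ccl4, Ccl7, Ccl22 and Ccl2 had 4, 2, 2, 2 and 1. Ccl5 and Ccl8, with UTRs of 199 and 165 bases, had none. At least 1 was present in 60.8% of all transcripts, whose median 3′ UTR is 753 bases, and in 42.4% of those with a 3′ UTR of 200 to 600 bases, where the median density was 0. The longer TTATTTATT occurred in no member, in 6.47% of all transcripts and in 2.42% of those with 200 to 600 bases.

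Of the 10 genes, 8 were detected, a share of 80% beside 45.6% of protein-coding genes. The median over the members of log2(TPM + 0.1) was 4.04 ± 0.60, against -0.43 ± 0.13 over all protein-coding genes and 3.60 ± 0.11 over the detected ones. The members were chosen with earlier results of these data known, so neither comparison is a test of the CC chemokine family. Of 11 other CC chemokines, 1 was detected, a share of 9.09%. By mean TPM the order ran from Ccl5 through Ccl4, Ccl7, Ccl3, Ccl2, Ccl9, Ccl6, Ccl12 and Ccl8 to Ccl22. A lower level in bulk RNA may mean fewer cells with the RNA or less RNA per cell, and these cannot be told apart.

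**Figure D1:**
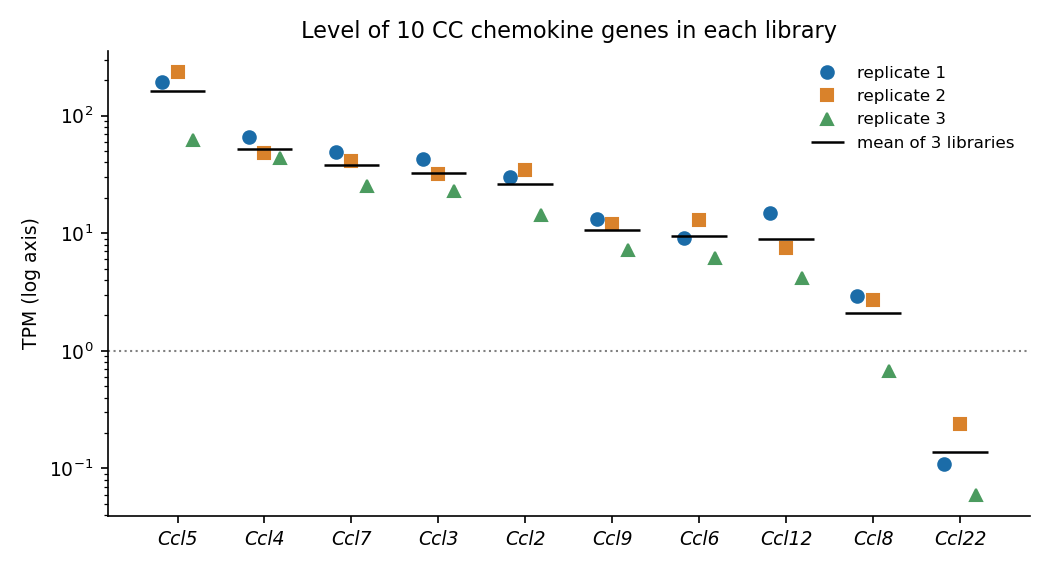
TPM on a log axis for each of the 10 genes, with 1 symbol per library, a bar at the mean of 3 libraries and a dotted line at 1 TPM. Replicate 3 is the lowest symbol for every gene, and Ccl5 spans 62.1 to 236 TPM.

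Among the Ccr1 ligands and Ccl4, Ccl5 (ENSMUSG00000035042.2), a chemokine for T cells, monocytes and eosinophils, was at 192, 236 and 62.1 TPM in replicates 1, 2 and 3, a mean of 163 ± 90.3 (SD, n = 3). Replicate 3 stood well below the others, yet even there Ccl5 was the highest of the 10. It lay above 98.9% of protein-coding genes by mean TPM, with 1011, 1289 and 357 expected counts behind the values. Ccl4 (ENSMUSG00000018930.3), which attracts NK cells and monocytes, was at 65.7, 48.1 and 43.7 TPM (52.5 ± 11.6). Replicate 1 was the highest, and the values overlapped those of Ccl5 by way of its replicate 3. Ccl3 (ENSMUSG00000000982.5), its partner in the same cluster and a Ccr1 ligand, was at 43.1, 32.2 and 23.0 TPM (32.7 ± 10.1). Ccl4 was the higher of this pair in every library.

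Ccl9 (ENSMUSG00000019122.8) and Ccl6 (ENSMUSG00000018927.3), rodent chemokines for myeloid cells, were lower. Ccl9 was at 13.1, 11.9 and 7.18 TPM (10.7 ± 3.14) from 374, 555 and 326 expected counts, since its transcript is long. Ccl6 was at 9.15, 13.0 and 6.20 TPM (9.44 ± 3.39). Their ranges overlapped, and Ccl6 was above Ccl9 in replicate 2 alone.

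Of the Ccr2 ligands, Ccl7 (ENSMUSG00000035373.2), which recruits monocytes, was at 48.9, 41.0 and 25.2 TPM (38.4 ± 12.0). Ccl2 (ENSMUSG00000035385.5), the main monocyte chemoattractant, was at 29.99, 34.8 and 14.2 TPM (26.3 ± 10.8), below Ccl7 in each library. Ccl12 (ENSMUSG00000035352.3), the third ligand of that receptor in mice, was at 15.0, 7.47 and 4.14 TPM (8.86 ± 5.55) from 67, 36 and 20 expected counts. Its value in replicate 1 was 3.62 times that in replicate 3, so the rank of Ccl12 among Ccl9 and Ccl6 differed between libraries.

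The remaining ligands were near or under the limit of detection. Ccl8 (ENSMUSG00000009185.2) was at 2.91, 2.73 and 0.68 TPM, from 12, 12 and 3 expected counts, whose 95% exact Poisson intervals were 6.20 to 20.96 for a count of 12 and 0.619 to 8.77 for a count of 3. Ccl22 (ENSMUSG00000031779.3) was at 0.11, 0.24 and 0.06 TPM, from 3, 8 and 2 expected counts with intervals of 0.619 to 8.77, 3.45 to 15.8 and 0.242 to 7.22. The intervals cover counting error only. At this depth the 3 libraries could not be told apart for Ccl22.

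Neighbours in the order were compared within each library on the log2(TPM + 0.1) scale and called apart where the sign was the same in 3 of 3 libraries and the mean difference exceeded its SD. By this rule 6 of 9 pairs were apart. Ccl5 exceeded Ccl4 by 1.45 ± 0.90, Ccl4 exceeded Ccl7 by 0.48 ± 0.28 and Ccl7 exceeded Ccl3 by 0.22 ± 0.11. Ccl2 exceeded Ccl9 by 1.23 ± 0.29, Ccl12 exceeded Ccl8 by 2.06 ± 0.56 and Ccl8 exceeded Ccl22 by 3.06 ± 0.78, and only for these last 3 pairs did the ranges of TPM over libraries not overlap. Ccl3 and Ccl2 (0.37 ± 0.42), Ccl9 and Ccl6 (0.20 ± 0.32) and Ccl6 and Ccl12 (0.22 ± 0.81) did not differ beyond their spread. A sign-flip test, exact and two-sided, cannot give a p below 0.25 with 3 libraries. That value was reached by the 6 pairs called apart (0.375 after Benjamini-Hochberg adjustment over the 9 pairs), and no pair passed 0.05.

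In the genome the members formed 2 groups on chromosome 11 (mm10) and 1 gene apart. Ccl2, Ccl7, Ccl12 and Ccl8, all on the plus strand, spanned 82035571 to 82116799, or 81.2 kb. Along it the level was 26.3, 38.4, 8.86 and 2.11 TPM in that order of position. Ccl11, an eosinophil chemokine annotated between Ccl7 and Ccl12, was at 0.233 TPM. The second group, 1409 kb further, spanned 83525778 to 83664683, or 138.9 kb, with Ccl5, Ccl9, Ccl6 and Ccl3 on the minus strand and Ccl4 on the plus strand. Its highest members stood at its ends, with Ccl5 at 163 TPM at one and Ccl3 and Ccl4 at 32.7 and 52.5 at the other, and Ccl9 and Ccl6 at 10.7 and 9.44 between them. Each of the other genes annotated within these spans had a mean below 1 TPM. Ccl22 lay on chromosome 8 (94745590 to 94751699), beside the chemokine genes Ccl17, listed at 0, and Cx3cl1, with 1 expected count in 1 library.

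**Figure D2:**
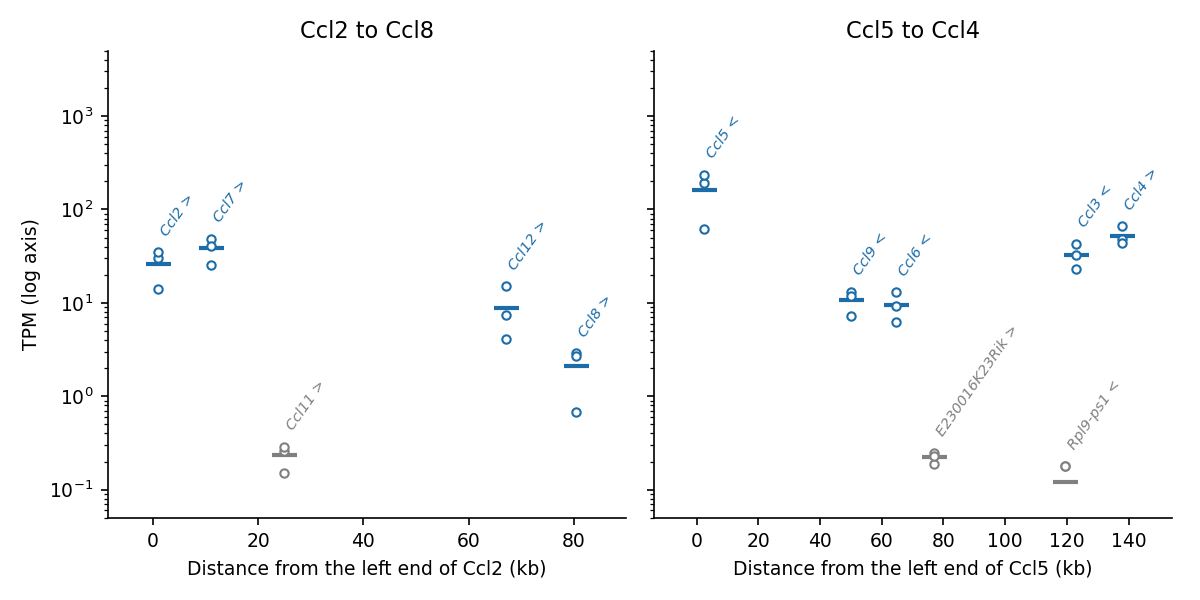
TPM on a log axis against distance along chromosome 11 in kb for both groups of members (blue) and other genes annotated within them (grey). Open circles are libraries, bars are means, values of 0 are not drawn, and > or < gives the strand. Ccl11 (0.233 TPM) lies between Ccl7 (38.4 TPM) and Ccl12 (8.86 TPM), far below both.

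The treatment of strand is not given in the sources used here, so reads of overlapping antisense genes may be mixed. Gm17268, antisense to Ccl2, was listed at 0, and E230016K23Rik, antisense to Ccl6, had 3, 4 and 2 expected counts beside 69, 147 and 78 for Ccl6. The coding transcripts have 3 exons, or 4 in Ccl6 and Ccl9, and range from 511 exonic bases in Ccl8 to 3006 in Ccl9.

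A second set of deposited tables, made straight from the reads and summed here per gene, kept the ends of the order and changed its middle. Ccl5 was highest there too, at 184 TPM ± 101, followed by Ccl4 at 86.8 ± 32.8 and Ccl3 at 69.9 ± 22.1. Ccl3 and Ccl9 were 2.14 and 3.61 times as high as in the gene tables. Over detected protein-coding genes the median ratio was 1.30, and 16.7% had a ratio of at least 2. Ccl22, not detected, had a ratio of 3.92 from 3, 8 and 2 expected counts in the gene tables, so that background does not cover it. The other 7 members had ratios between 1.03 and 1.65. Ccl3 was therefore above Ccl7 in the read-based tables (Ccl7 minus Ccl3 was -0.78 ± 0.40 on the log2 scale), and Ccl9 above Ccl2 (Ccl2 minus Ccl9 was -0.55 ± 0.34).

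For Ccl9 the difference lay in 1 transcript. Ccl9-202, a processed transcript of 398 bases, took 25.0%, 0% and 0% of the gene's TPM in replicates 1, 2 and 3 of the alignment-based tables, and 74.0% ± 3.43 in the read-based ones. Its estimated counts in the latter were 131, 184 and 100. The coding Ccl9-201 stood at 9.64 TPM in the former and 9.86 in the latter. Ccl12-202 was at 0 in every library by alignment and held 15.5% ± 2.02 of the TPM of Ccl12 by reads. The coding Ccl12-201 was at 8.86 TPM ± 5.55 by alignment and 10.6 ± 5.92 by reads, a difference within its SD.

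**Figure D3:**
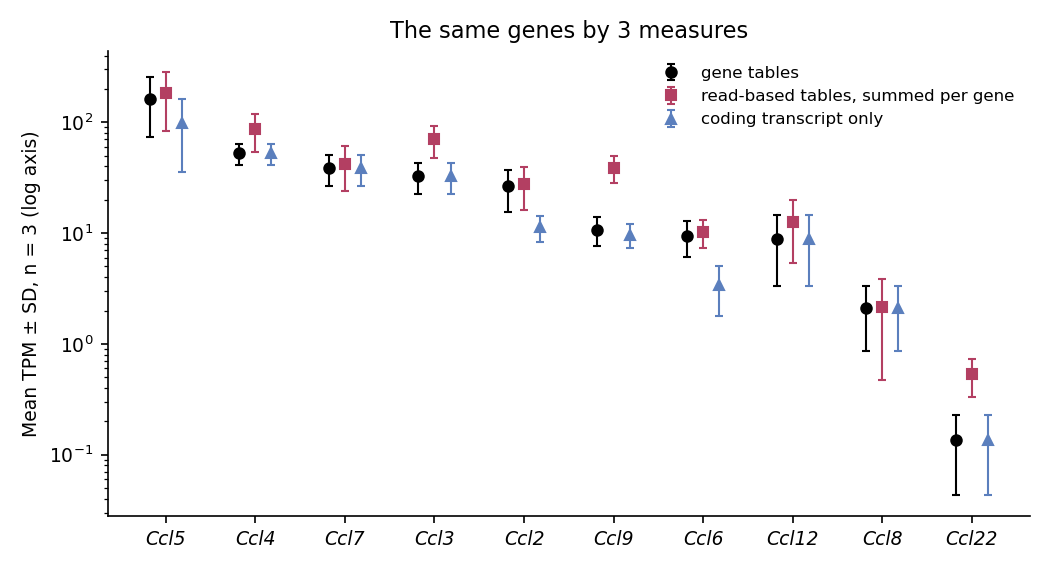
Mean TPM ± SD (n = 3, log axis) of each gene in the gene tables (black circles), in the read-based tables (red squares) and for the coding transcript alone in the alignment-based tables (blue triangles). Ccl9 rises from 10.7 to 38.7 TPM between the first and the second, and Ccl5, Ccl2 and Ccl6 are lower by the third.

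Chromatin RNA contains unspliced RNA, and these tables can place it only on annotated transcripts. A transcript of the retained-intron class is annotated for 3 of the 10 members, Ccl2, Ccl5 and Ccl6, against 63.1% of detected protein-coding genes. For Ccl5, the retained-intron transcript Ccl5-202 took 47.1%, 32.2% and 45.2% of the TPM (41.5% ± 8.11). For Ccl2, Ccl2-202 took 60.02%, 60.3% and 42.9% (54.4% ± 9.97). Both shares are large, so the level of these genes depends on whether that transcript is counted. For Ccl6 the coding transcript held 37.1% ± 14.9 of the TPM but 65.0% ± 17.0 of the expected counts, and Ccl6-202 and Ccl6-203, both of the retained-intron class, held the rest. Over all 10 members the retained-intron share was 24.0% ± 3.82, and the share on all noncoding classes was 24.3% ± 4.19, beside 37.1% ± 0.561 and 50.3% ± 0.767 over all protein-coding genes. Of the expected counts, retained-intron transcripts held 23.5% ± 5.09 over the members and 23.7% ± 0.768 over all protein-coding genes. The gap in TPM for this class was thus absent in the counts. All noncoding classes held 23.6% ± 5.20 of the expected counts over the members, still below 31.2% ± 1.08 over all protein-coding genes. The other 7 members have no retained-intron transcript to receive reads, so none of these shares is a measure of how completely they were spliced.

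**Figure D4:**
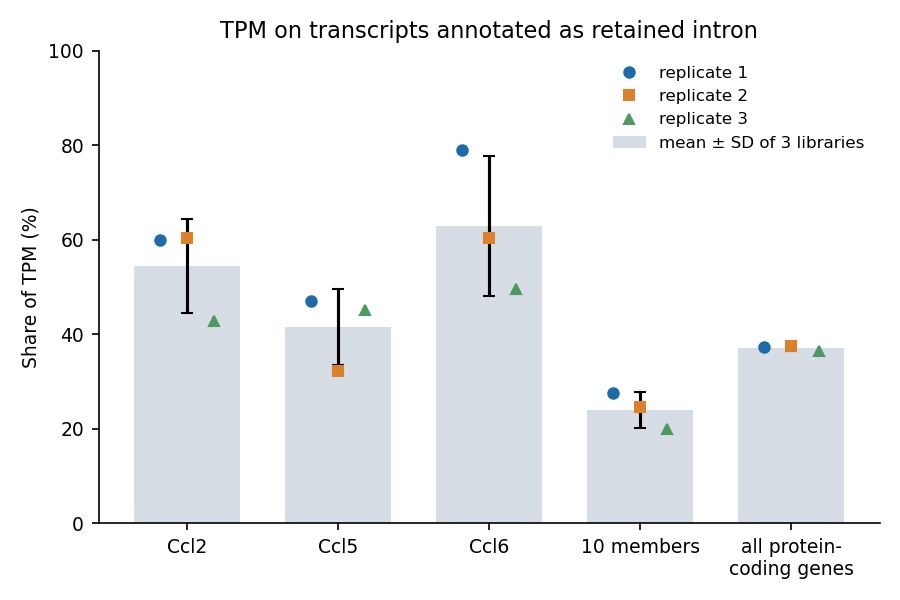
Share of TPM in percent on transcripts annotated as retained intron, for the 3 members that have one, for the 10 members together and for all protein-coding genes. Bars are means with SD, and symbols are the 3 libraries. Ccl2 is at 42.9% to 60.3%, and all protein-coding genes are at 37.1%.

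With the coding transcript alone, an alternative added after the data were seen, Ccl5 was at 102, 160 and 34.0 TPM (98.5 ± 62.9). In replicate 3 it was then below Ccl4 at 43.7 TPM, and the excess of Ccl5 over Ccl4 on the log2 scale, 0.67 ± 1.05, no longer exceeded its SD. Ccl2 was at 11.3 TPM ± 2.91, Ccl9 at 9.64 and Ccl6 at 3.40 ± 1.62, which placed Ccl6 below Ccl12.

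Replicate 3 had the lowest TPM for 10 of 10 members, a share to be read beside 42.1% of the genes kept for the count model that were lowest there. On CPM, counts scaled to library size with TMM factors that allow for the makeup of each library, it was lowest for 9 of 10, against 31.7% of genes. Ccl4 was the exception, at 27.9, 16.8 and 17.2 CPM. This pattern was noticed after the values were seen, and the members share their libraries, so they are not independent of each other. The SD of log2 CPM over the 3 libraries had a median of 0.50 over the 8 members kept and 0.19 over all 14789 genes. The members' median deviation from their own means was 0.49, 0.13 and -0.48 in replicates 1, 2 and 3. RNA amount was also different in each library, with 1 library at each amount, so amount and replicate cannot be told apart.

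The spread of single genes was tested with edgeR, which asked whether a gene varied between the 3 libraries more than genes of its level, with Benjamini-Hochberg adjustment over all genes. The test called 168 of 14789 genes, or 1.14%. Of the 8 members tested, 2 were called, Ccl5 (adjusted p = 4.25e-05) and Ccl2 (adjusted p = 0.0282). Ccl5 was at 70.3, 65.5 and 20.5 CPM, a ratio of 3.42 between the highest and the lowest library. Ccl2 was at 21.6, 21.8 and 9.26 CPM, a ratio of 2.36. In both genes replicates 1 and 2 lay close together and replicate 3 apart, and without replicate 3 neither was called by edgeR (adjusted p = 1.00 for both). Over the alternatives the edgeR adjusted p of Ccl5 ran from 5.27e-09 to 1.00 and that of Ccl2 from 0.000777 to 1.00. Without replicate 2, or with no filter on low counts, Ccl2 was not called by edgeR either (adjusted p = 0.176 and 0.108). As DESeq2 dispersion outliers, Ccl5 was called and Ccl2 was not.

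Ccl12 had the widest ratio of the members tested, 4.05, from 4.66, 1.83 and 1.15 CPM, and did not pass the edgeR test (adjusted p = 0.0934). In Ccl12 replicate 1 stood apart above the others, unlike in Ccl5 and Ccl2. Ccl7, Ccl3 and Ccl4 had ratios of 2.04, 1.98 and 1.66 (adjusted p = 0.313, 0.328 and 0.702 in edgeR). Ccl9 and Ccl6, with ratios of 1.504 and 1.66, had an adjusted p of 1.00. Ccl8 and Ccl22 had too few counts to be tested.

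**Figure D5:**
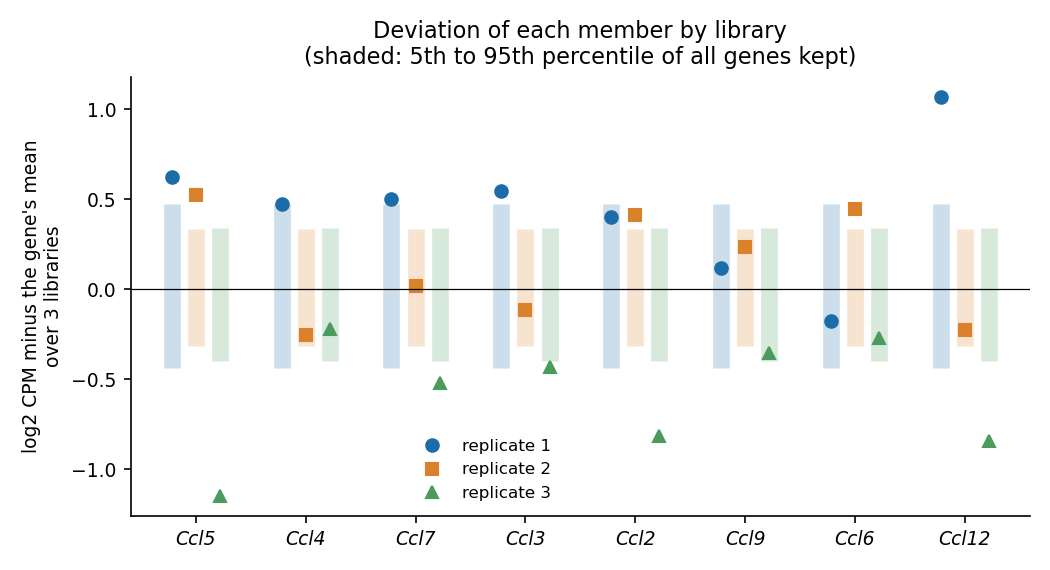
Deviation of log2 CPM from each gene's mean over 3 libraries, for the 8 members kept for the count model, with 1 symbol per library and shaded ranges from the 5th to the 95th percentile of all genes in that library. Ccl5 is lowest at -1.15 in replicate 3, and Ccl12 highest at 1.07 in replicate 1.

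Genes whose pattern over the 3 libraries was most like that of the 3 highest members were sought among 5639 protein-coding genes, by the root mean square difference of centred log2 CPM. For Ccl5 the nearest were Saa3 (0.177), Zc3h11a (0.230) and the member Ccl2 (0.240), and no gene came within 0.1. Saa3, an acute-phase gene, was at 173, 186 and 47.2 TPM, also lowest in replicate 3. For Ccl4, 134 genes came within 0.1, with Usp18 (0.0109), Mgat4a (0.0149) and Mndal (0.0157) nearest. For Ccl7, 39 did, with mt-Nd6 (0.0144), Tnip3 (0.0162) and Atp5k (0.0267) nearest. With 3 libraries a close match is a weak description, as the number of genes within 0.1 of Ccl4 shows.

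The genes around these ligands in the pathway were at mixed levels. Of 11 other CC chemokines only Ccl25, a chemokine best known from thymus and gut, was detected, at 31.7, 31.6 and 28.4 TPM (30.6 ± 1.87), between Ccl3 and Ccl2. In 7 of the 11 every library was listed at 0. Among them Ccl24, an eosinophil chemokine, reached 6.48 TPM in the read-based tables. Of 15 chemokines of other classes 3 were detected, Cxcl10 at 89.5 TPM ± 64.3, Cxcl16 at 21.6 ± 4.01 and Cxcl2 at 5.50 ± 0.773. Cxcl10, a ligand of Cxcr3, was also called for its spread (edgeR adjusted p = 1.42e-12), at 161, 71.9 and 35.8 TPM. Its highest value was in replicate 1.

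Of 11 CC receptor genes 5 were detected. Among them Ccrl2, a receptor-like protein, was at 5.48 TPM ± 0.658, then Ccr9, the receptor of Ccl25, at 2.47 ± 0.336 and Ccr10 at 2.39 ± 0.790. Ccr1 was at 2.32 TPM ± 0.240. Ccr2, the receptor of Ccl2, Ccl7 and Ccl12, was at 0.63, 0.76 and 0.40 TPM and not detected by the rule of 1 TPM, though it averaged 3.34 in the read-based tables. Ccr8 was listed at 0 in every library and Ccr4 averaged 0.197 TPM. Of 4 atypical receptors, which bind chemokines without the usual signal, Ackr4 was detected at 2.72 TPM ± 0.289 and Ackr3 was listed at 0.

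All 18 transcription factors of the chemokine response were detected. Stat2 stood at 671 TPM ± 122, Irf7 at 314 ± 71.5 and Irf1 at 120 ± 28.3, all factors of the interferon response. The lowest was Cebpd, at 3.19 ± 0.870. Fos was the only one called for its spread (edgeR adjusted p = 0.000173), lowest in replicate 1 at 6.67 TPM against 24.7 and 19.0. Of 10 genes listed for control of mRNA decay or for cleavage of chemokines, 6 were detected. The highest were Zfp36 at 52.5 TPM ± 10.8, Zfp36l2 at 29.7 ± 3.70, Zfp36l1 at 22.8 ± 5.64 and Zc3h12a at 18.4 ± 0.531. The 4 proteases on that list did not reach 1 TPM in every library of the gene tables, where Mmp9 was lowest at a mean of 0.01 TPM. Of these, Mmp12 averaged 0.46 TPM there and 3.64 ± 0.293 in the read-based tables, where the other proteases averaged below 1 TPM.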

How the data were processed

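Total RNA sequencing of the chromatin fraction gave 3 libraries of 1 condition. The authors deposited gene and transcript tables of expected counts and TPM, quantified from alignments to the mm10 transcriptome (GENCODE M21), per the file headers and the notes deposited with them. A second set of transcript tables, also deposited, holds estimated counts and TPM computed directly on the reads, with tool names and versions not given in the sources used here. The bounds of TPM intervals were deposited as well and were not used.

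Members were matched by symbol, and all 10 were found, as was every gene on the lists. The members and lists were chosen with earlier results of these data known. The text names all members, up to 4 highest and the lowest genes of a list, genes of at least 1 TPM within a cluster, and the 3 genes most like each of the 3 highest members. Ccl11, Ccl17, Cx3cl1, Ccl24, Ccr1, Ccr2, Ccr4, Fos, Mmp12, Siglech, Gm17268, E230016K23Rik, Heatr9, Taf15 and the named T cell, neutrophil and fibroblast markers fall outside this rule and were chosen after their values were seen. Read-based values were summed per gene, with 86 absent identifiers set to 0. Entries that name no gene held 1.39%, 0.288% and 0.283% of expected counts and were left out. A gene with no counts could reach 0.222, 0.150 or 0.165 CPM, the limit of 3 counts, by counting error alone.

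Expected counts were rounded. The fit used edgeR 4.0.16 under R 4.3.3, with filterByExpr, TMM scaling, an intercept and a trended dispersion, and set each gene's deviance against a chi-square distribution. The step was tested on simulated data. CPM used a prior count of 2 on the log2 scale. P-values cover only the spread among these libraries, which may be technical. Other steps ran in Python 3.11.15 with pandas 2.3.3, numpy 2.4.6 and scipy 1.17.1. Alternatives were size factors and dispersion outliers of DESeq2 1.42.0, no filter on counts, the read-based tables, other thresholds, pseudocounts and scalings, the coding transcript only (added after seeing the data) and each replicate left out. Protein sequences were not analysed here. The values of 2 listed genes are not reported here.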

Additional observations from a re-analysis of the deposited data

How the results depend on the processing

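The members' median level was 4.04 on the log2(TPM + 0.1) scale, and 4.13 with a pseudocount of 1. It moved to 4.93 in the read-based tables, 5.81 after rescaling to protein-coding nuclear genes, a step that raises every gene, and 4.87 with counts per kb of annotated length, and ranged from 3.86 to 4.39 with 1 replicate left out. The number of members detected was 7 to 9 over thresholds, tables and replicates left out, against 8. The number of neighbour pairs apart was 6 to 8 of 9, against 6, but the pairs were not always the same. Ccl3 over Ccl2 (1.39 ± 0.60) and Ccl9 over Ccl6 (1.91 ± 0.25) were apart in the read-based tables. Ccl5 over Ccl4 was not apart with the coding transcript only. With 1 replicate left out, the sign had to be the same only in the libraries kept, which is a weaker rule. Direction turned for Ccl7 over Ccl3 (-0.78), Ccl2 over Ccl9 (-0.55) and Ccl6 over Ccl12 (-0.19) in the read-based tables, and for Ccl6 over Ccl12 with the coding transcript only (-1.27) and without replicate 2 (-0.067, against 0.68 without replicate 1). The cause was not tested. Genes called for their spread numbered 271 in the read-based tables and 61 as DESeq2 dispersion outliers, against 168, and 52 to 68 with 1 replicate left out, where fewer libraries were fitted. Ccl5 was called in each of these except without replicate 3. The share of the members' TPM on noncoding classes was 28.5% in the read-based tables, against 24.3%, and 22.2% to 26.4% with 1 replicate left out. Replicate 3 was lowest for 9 or 10 members under each of 5 scalings, beside 31.1% to 48.5% of the genes kept for the count model. No paired analysis was possible because the libraries form 1 group. Depth limits Ccl8 and Ccl22, with 12 or fewer counts in each library.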

Other observations

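Heatr9, a gene of the interval next to the Ccl5 group, was looked at after its values were seen and falls outside the rule for named genes. It lies on the minus strand of chromosome 11 (83511736 to 83522175), as Ccl5 does, and its 5′ end is 3.60 kb downstream of the 3′ end of Ccl5. Heatr9 was at 15.0, 8.05 and 3.36 TPM in replicates 1, 2 and 3, and it was called for its spread by edgeR's goodness of fit (adjusted p = 4.00e-06), with a ratio of 4.47 between the highest and the lowest library. By TPM Heatr9 was highest in replicate 1, whereas Ccl5 was highest in replicate 2 (236 TPM, against 192 in replicate 1). Heatr9 was lowest in replicate 3, as were all 10 members and 42.1% of the genes kept for the count model. Taf15, a gene 19.0 kb from Ccl5 on its other strand, was at 85.0, 66.4 and 61.1 TPM and was not called (adjusted p = 1.00).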
